A study of Mus musculus with 20 samples.

Results

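A 100 kb interval of mouse chromosome 15, from 59.47 to 59.57 Mb of mm9 and named here for Trib1, was described cytosine by cytosine. It was chosen by the methylation of a window inside it, which was lower in the CD34- than in the CD34+ fraction of wild-type promyelocytes. The CpG cytosines kept were those with at least 10 reads in at least 4 of the 5 libraries of each of 4 groups, on each strand separately. This gave 256 of the 455 cytosines listed in the interval, and 256 of 1730534 such cytosines in the whole data set. They lay in 19 of the 100 windows of 1000 bp, and 10 windows held the 3 cytosines required for a test, among 127276 windows tested in all. A further 33 windows had listed cytosines of which none was kept, and 48 had none listed.

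Enhanced reduced representation bisulfite sequencing (ERRBS), which reads methylation in CpG-rich fragments of the genome, had been run on promyelocytes of FVB/n mice. The groups, of 5 libraries each, were CD34- late promyelocytes of PML-RARα transgenic mice, CD34+ early promyelocytes of the same genotype, CD34- wild-type (WT) cells and CD34+ WT cells. The question behind the comparisons, as far as the series design states it, was how DNA methylation in each fraction differs between transgenic and control mice. The promoter that drives the transgene is not given in the sources used here, nor whether the libraries came from separate mice, so p-values measure the spread between libraries. Replicates are called by the number in their titles, which runs in consecutive pairs of a CD34- and a CD34+ library of the same genotype, without a statement of what the numbers mean. Both libraries of each such pair also share a second tag in their titles, of unstated meaning. No transcripts were measured and the fractions could not be checked against markers.

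Trib1 encodes a pseudokinase of the Tribbles family, a scaffold that brings substrates to the ubiquitin ligase COP1. Its best known substrate in myeloid cells is C/EBPα, a transcription factor needed for granulocyte differentiation, and forced Trib1 expression can cause myeloid leukaemia in mice. PML-RARα is the fusion protein of acute promyelocytic leukaemia and arrests cells at the promyelocyte stage. CpG-dense promoters are usually unmethylated whatever their activity, whereas distal CpGs often lose methylation where enhancers become active. In RefSeq GRCm38.p6, Trib1 stands between the lncRNA gene Gm36677 and the pseudogene Gm20150, with Nsmce2, which encodes a SUMO ligase, next on the Gm36677 side. The data are in mm9, for which no annotation was used here, so the exons of Trib1 were not placed and it was not determined which cytosines are exonic, intronic or intergenic.

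Summed over its cytosines, a library had a coverage of 83631324 to 362881291. In 6 libraries the window levels scattered around the group by more than 6 percentage points on average (6.17 to 9.49), against 3.55 to 5.72 in the other 14. The 6 libraries were replicates 4, 6 and 12 of the PML-RARα CD34- group, 5 and 11 of the PML-RARα CD34+ group and 1 of the WT CD34+ group. They are called libraries of high scatter below, and are not marked at every value. Groups were spread unevenly over 4 flowcells, here A to D, and the PML-RARα fractions shared only flowcell B.

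Methylation across the interval took 3 main forms. A CpG-dense stretch was close to unmethylated in every group, and most windows beyond it were highly methylated in every group. Between them, 2 short clusters of cytosines had levels that were lower in CD34- than in CD34+ cells, by the group means of both genotypes. Some windows fell outside these forms. Those 2.65 and 4.41 kb past the dense stretch had group means of at most 6.36%, and those at 30.3 and 62.4 kb had intermediate pooled levels in every group. The profile across the interval shows these forms in order along the chromosome.

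**Figure D1:**
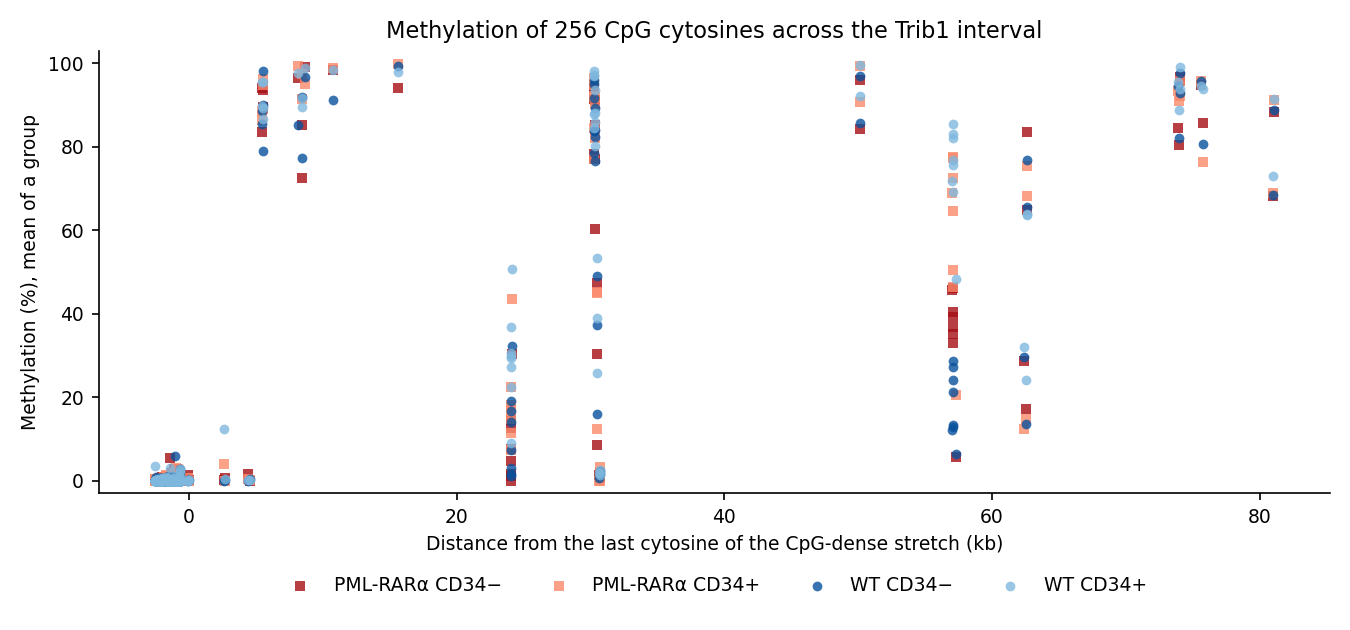
Each point is the mean methylation of 1 kept CpG cytosine in 1 group of 5 libraries (vertical axis, percent of reads), placed by its distance from the last cytosine of the CpG-dense stretch (horizontal axis, kb). The dense stretch lies at the bottom left, the methylated windows at the top, and the groups stand apart mainly at 24.0 and 57.0 kb.

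The CpG-dense stretch reached from 59479193 to 59481760, 2568 bp, and held 196 of the 256 kept cytosines. Its 3 windows, which start at 59479001, 59480001 and 59481001, averaged between 0.0637% and 0.375% in the 4 groups. Of its cytosines, 177 stayed below 5% in every library in which they were covered. The other 19 reached 5% or more in some library, with a highest single value of 28.9% and a highest group mean of 5.78%. Levels here were too low to show a fall between fractions: the PML-RARα difference was between -0.0353 and 0.00207 percentage points in the 3 windows. The 3 windows had adjusted p-values from 0.777 to 0.999 in the PML-RARα comparison by the quasi-binomial test with Benjamini-Hochberg adjustment.

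The window that chose the interval held 7 kept cytosines between 59538780 and 59538866, a far cluster of 87 bp that began 57020 bp beyond the dense stretch. Pooled over its cytosines, methylation was 36.4%, 63.4%, 55.0%, 29.9% and 23.3% in PML-RARα CD34- replicates 4, 6, 12, 14 and 20. It was 71.6%, 89.2%, 65.4%, 56.9% and 62.4% in PML-RARα CD34+ replicates 3, 5, 11, 13 and 19. The CD34- libraries were lower apart from an overlap of replicate 6 (63.4%), a library of high scatter, with replicates 13 and 19 of the CD34+ group. In WT CD34- replicates 2, 8, 10, 16 and 18 the level was 25.4%, 26.0%, 28.8%, 13.3% and 13.5%, and in WT CD34+ replicates 1, 7, 9, 15 and 17 it was 86.5%, 82.6%, 90.9%, 63.0% and 67.8%. The WT fractions were fully separate, which is the property the window was chosen for. A library had 230 to 2605 reads over these cytosines, and the widest 95% Wilson interval of a library spanned 8.84 points. A read that crosses several cytosines counts once for each, and intervals and floors cover counting error only.

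The far cluster averaged 41.6% ± 17.0 in PML-RARα CD34- and 69.1% ± 12.4 in PML-RARα CD34+ libraries (SD, n = 5 each), a difference of -27.5 points. PML-RARα levels did not enter the WT difference that chose the window. The choice was still made with earlier results of these data known, so the tests here are not fully independent of it. The exact permutation test of the 10 libraries gave p = 0.0238 (two-sided; smallest possible 0.00794). Without CD34+ replicate 3, 5 or 11 the exact p was 0.0556, 0.0635 or 0.0556. In the fit across all windows the difference had an unadjusted p of 0.00669 and an adjusted p of 0.331 (quasi-binomial test, Benjamini-Hochberg over 127276 windows), so it did not pass the threshold. This depended on leaving title numbers out of the fit. With consecutive title numbers as a replicate block, added after the data were seen, the adjusted p was 0.00556 (quasi-binomial test). The exact sign-flip p of these pairs was 0.0625, the smallest possible. Libraries of the same group differed widely here, as the SDs of 17.0 and 12.4 points show. The window's overdispersion was 88.5, against a median of 9.12 over all windows. That measure also rises with the reads of a window, so it is not a spread on a common scale. Within flowcell B, the only one that held both PML-RARα fractions, the levels were 45.7% in CD34- (n = 2) and 75.4% in CD34+ libraries (n = 3), a difference of -29.7 points. All of these libraries except CD34+ replicate 3 were of high scatter.

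The WT difference at the far cluster was -56.8 points, with 21.4% ± 7.40 in CD34- and 78.2% ± 12.1 in CD34+ libraries (SD, n = 5 each). Being the value that selected the interval, it is a description and carries no test. It was -63.8, -56.6 and -49.9 points within flowcells A, B and D. Of 127276 windows, 5 had a WT difference at least as low, the far cluster included, and 86 had a PML-RARα difference at least as low as its -27.5 points. Whether the size of the fall differed between genotypes was not tested, because the WT value was chosen for being large.

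**Figure D2:**
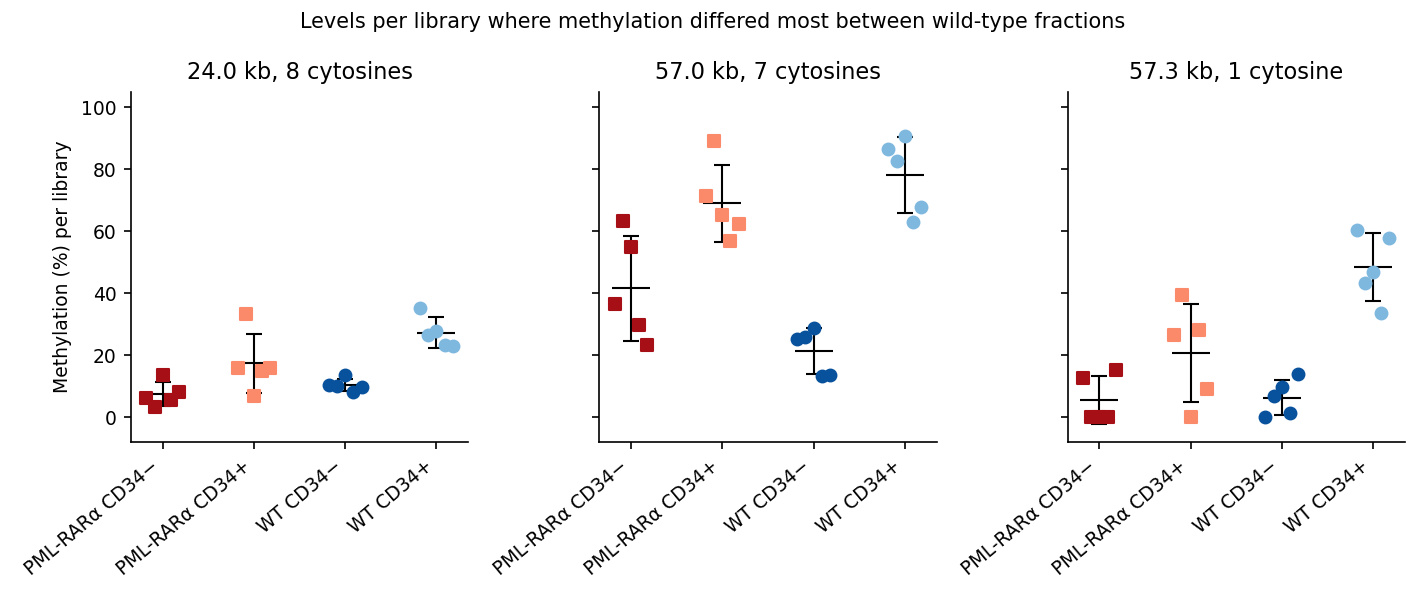
Each point is the methylation of 1 library (vertical axis, percent of reads) at the near cluster (24.0 kb), the far cluster (57.0 kb) and the single cytosine beyond it (57.3 kb), by group; bars are the mean ± SD of 5 libraries. WT CD34- libraries lie below all WT CD34+ libraries in each panel, whereas the PML-RARα fractions overlap in each.

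All 7 cytosines of the far cluster had a lower mean in CD34- cells in both genotypes. The PML-RARα differences ran from -38.1 to -13.7 points and the WT differences from -63.4 to -54.4 points. The first cytosine, 59538780, averaged 45.6% in PML-RARα CD34-, 68.8% in PML-RARα CD34+, 12.0% in WT CD34- and 71.8% in WT CD34+ cells. The CpG at 59538824 and 59538825 showed the smallest PML-RARα differences, with 36.7% in CD34- against 50.5% in CD34+ cells on the plus strand and 32.9% in CD34- against 46.5% in CD34+ cells on the minus strand. In WT cells the same CpG had 12.8% in CD34- against 69.0% in CD34+ cells on the plus strand and 13.4% against 76.8%, CD34- against CD34+, on the minus strand, differences within the range of its neighbours or larger. Cytosine 59538866 had the largest PML-RARα difference, 39.2% ± 28.4 in CD34- against 77.3% ± 14.7 in CD34+ libraries (SD, n = 5 each).

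The minus-strand cytosine 59538847 was the only one of the cluster at which the PML-RARα fractions did not overlap. It had 39.7%, 50.9%, 42.3%, 32.5% and 37.1% in CD34- replicates 4, 6, 12, 14 and 20, against 74.1%, 97.7%, 63.2%, 56.6% and 70.9% in CD34+ replicates 3, 5, 11, 13 and 19. Its adjusted p over all single cytosines was 0.171 (quasi-binomial test), and it was not called. The strands of a CpG are counted from separate reads, and their means over the 20 libraries were near each other: 42.3% and 42.4% at 59538824 and 59538825, and 59.4% and 54.8% at 59538846 and 59538847. In single libraries they could differ, by up to 47.1 points at the first of these CpGs, in WT CD34+ replicate 1.

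**Figure D3:**
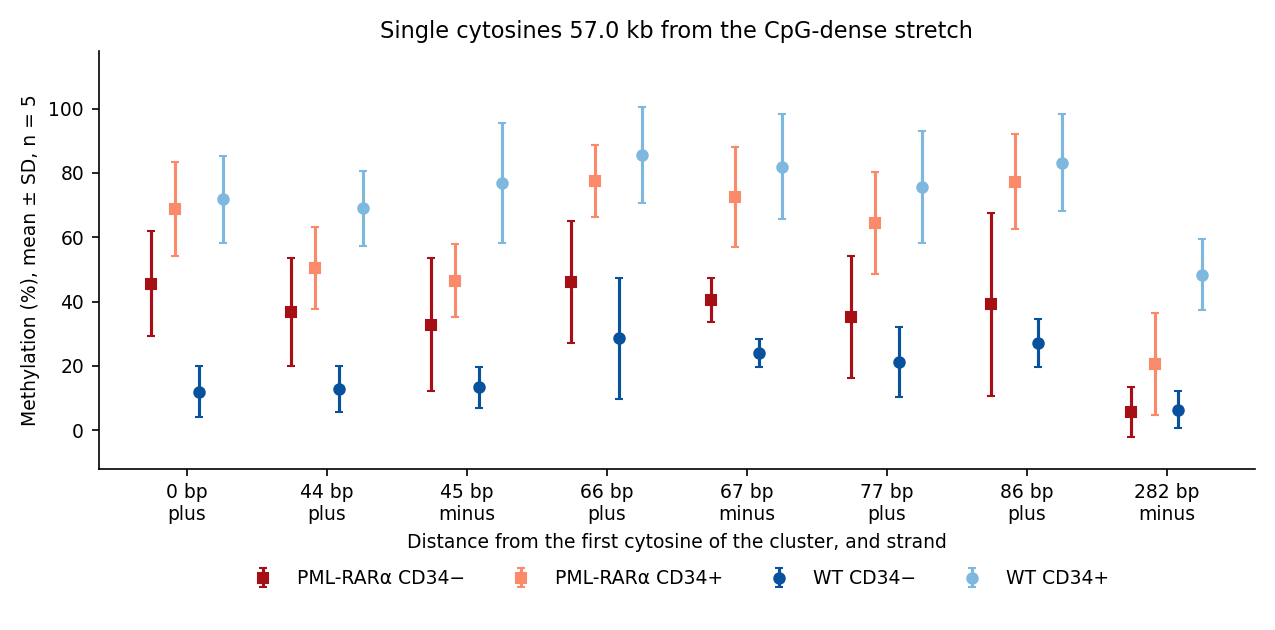
Mean methylation (vertical axis, percent; bars are the SD over 5 libraries) of the 7 cytosines of the far cluster and of the cytosine 196 bp beyond it, with the distance from the first and the strand on the horizontal axis. In each of the 8 positions the CD34- mean is below the CD34+ mean of the same genotype, and at the last position all groups are lower.

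The next kept cytosine, 59539062, lay 196 bp past the cluster and was the only one in its window. It averaged 5.61% ± 7.73 in PML-RARα CD34-, 20.6% ± 15.8 in PML-RARα CD34+, 6.35% ± 5.79 in WT CD34- and 48.4% ± 10.9 in WT CD34+ libraries (n = 5 each, SD). PML-RARα CD34- replicates 4, 6, 12, 14 and 20 had 12.7%, 0%, 0%, 0% and 15.3%, and CD34+ replicates 3, 5, 11, 13 and 19 had 26.5%, 39.5%, 0%, 28.0% and 9.09%. The fractions overlapped in PML-RARα cells: CD34+ replicate 11 was at 0 of 55 reads, which allows a level of up to 5.45%, and the counts of 0 in the CD34- libraries allow up to 1.71% to 3.75%. In WT CD34- replicates 2, 8, 10, 16 and 18 the level was 0%, 6.82%, 9.84%, 1.30% and 13.8%, and in WT CD34+ replicates 1, 7, 9, 15 and 17 it was 60.3%, 43.5%, 46.9%, 33.5% and 57.9%. The WT fractions did not overlap at this cytosine either, but its window was too sparse for the fit.

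The near cluster, 8 cytosines from 59505786 to 59505877 in the window chr15:59505001-59506000, spanned 92 bp. It began 24026 bp beyond the dense stretch and ended 32903 bp before the far cluster. Methylation was 6.21%, 3.46%, 13.7%, 5.53% and 7.99% in PML-RARα CD34- replicates 4, 6, 12, 14 and 20, and 15.8%, 33.2%, 6.96%, 15.0% and 15.8% in PML-RARα CD34+ replicates 3, 5, 11, 13 and 19. The fractions overlapped through CD34+ replicate 11, a library of high scatter, which lay below CD34- replicates 12 and 20. The other 4 CD34+ libraries lay above all 5 CD34- libraries. A library had 115 to 2568 reads here, and replicate 11 had the fewest, with 8 of 115 methylated. Its Wilson interval, 3.57% to 13.1%, held the 7.99% of replicate 20 but not the 13.7% of replicate 12. The interval of replicate 12, 11.0% to 16.9%, overlapped that of replicate 11. The order of these libraries was not tested. WT CD34- replicates 2, 8, 10, 16 and 18 had 10.3%, 9.94%, 13.5%, 8.26% and 9.80%, against 35.4%, 26.6%, 27.9%, 23.2% and 23.0% in WT CD34+ replicates 1, 7, 9, 15 and 17. The WT fractions were separate here as well, at lower levels than in the far cluster.

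The PML-RARα means at the near cluster were 7.38% ± 3.89 in CD34- and 17.4% ± 9.59 in CD34+ libraries (SD, n = 5 each), a difference of -9.99 points. The unadjusted p was 7.05e-05 and the adjusted p 0.0629 (quasi-binomial test), the lowest of the 10 windows of the interval, and the window was not called. It was called only without CD34- replicate 12, a library of high scatter, with a difference of -11.6 points and an adjusted p of 0.0326. The adjusted p was 0.617 with flowcell as a factor, 0.410 with only the 2 groups compared and 0.630 with thinned reads (quasi-binomial test). By limma, a second method, it was 0.529. Without CD34+ replicate 5, a library of high scatter, the difference was -6.04 points (adjusted p 0.0893). Within flowcell B the difference was -8.69 points, from libraries that were all of high scatter except CD34+ replicate 3. The WT means were 10.4% ± 1.93 in CD34- and 27.2% ± 5.04 in CD34+ libraries (SD, n = 5 each), a difference of -16.9 points, given as a description.

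All 8 cytosines of the near cluster had a lower mean in CD34- cells in both genotypes, with differences from -15.1 to -4.72 points in PML-RARα and from -26.4 to -7.78 points in WT cells. Their levels were unequal: the first cytosine, 59505786, averaged 0% in PML-RARα CD34-, 7.33% in PML-RARα CD34+, 1.14% in WT CD34- and 8.93% in WT CD34+ cells. The last, 59505877, averaged 30.3% in PML-RARα CD34-, 43.6% in PML-RARα CD34+, 32.2% in WT CD34- and 50.6% in WT CD34+ cells. The plus-strand cytosine 59505830 was the one at which the PML-RARα fractions did not overlap, with 4.75% ± 3.89 in CD34- and 18.2% ± 4.33 in CD34+ libraries (SD, n = 5 each) and an adjusted p of 0.171 (quasi-binomial test). Methylation thus differed along 92 bp by more than it did between groups.

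Closest to the dense stretch, 2.65 kb past its end, cytosine 59484407 was nearly unmethylated in CD34- cells and slightly methylated in CD34+ cells. PML-RARα CD34- replicate 20 had 0.667% and the other 4 libraries of that group 0%, whereas CD34+ replicates 3, 5, 13 and 19 had 3.28%, 5.26%, 2.56% and 5.26%, replicate 11 not being covered. All 5 WT CD34- libraries were at 0%, against 6.25%, 8.20%, 19.0%, 18.6% and 9.52% in WT CD34+ replicates 1, 7, 9, 15 and 17. The fractions did not overlap in either genotype, although the PML-RARα difference of -3.96 points was small and had an adjusted p of 0.214 (quasi-binomial test). Counts of 0 among these libraries allow levels of up to 1.95% to 8.57%, by their reads. The neighbour 59484447, in the same window, averaged between 0% and 0.654% in the 4 groups.

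**Figure D4:**
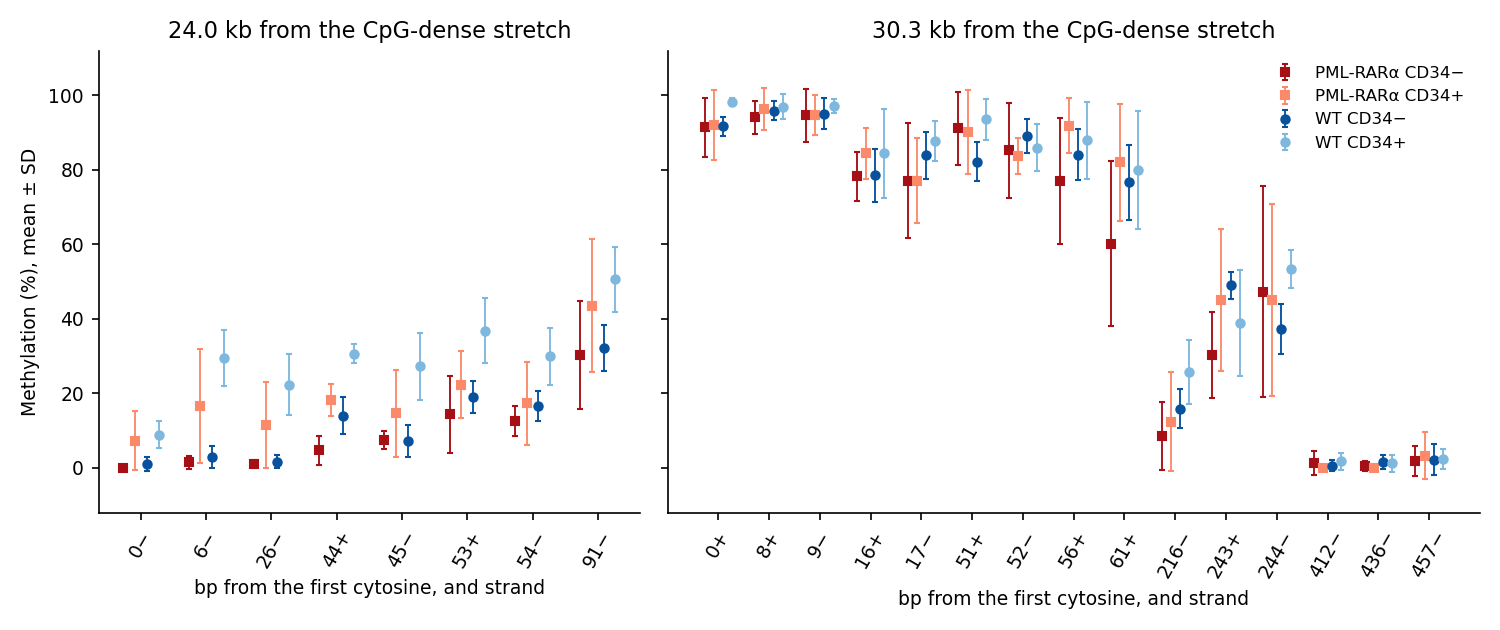
Mean methylation (vertical axis, percent; bars are the SD over the libraries of a group) of the 8 cytosines of the near cluster (left) and the 15 cytosines of the window at 30.3 kb (right), with the distance from the first cytosine in bp and the strand on the horizontal axis. CD34- means lie below CD34+ means at all 8 positions on the left, whereas on the right methylation drops along the sequence in all 4 groups.

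Between the clusters, the window chr15:59512001-59513000 crossed from methylated to unmethylated sequence within 458 bp. Its first 9 cytosines, from 59512021 to 59512082, had group means of 60.2% to 98.1%. The middle 3, from 59512237 to 59512265, had 8.51% to 53.4%, and the last 3, from 59512433 to 59512478, had 0% to 3.31%. This drop was present in every group. Pooled over the window, methylation was 43.4% ± 6.27 in PML-RARα CD34- and 46.7% ± 10.9 in PML-RARα CD34+ libraries (SD, n = 5 each; difference -3.33 points, adjusted p 0.689 by the quasi-binomial test).

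In WT cells that window had the largest rise of the interval, 47.9% ± 4.74 in CD34- against 40.5% ± 8.69 in CD34+ libraries (SD, n = 5 each), or 7.48 points. The pooled value weights each cytosine by its reads, and 12 of its 15 cytosines had a lower mean in WT CD34- than in WT CD34+ cells, against the sign of the pooled difference. Within flowcells A, B and D the pooled difference was 15.2, 7.23 and -0.154 points. WT CD34+ replicate 1 had 25.4%, below the 41.2% to 46.3% of the other 4 libraries of its group. A mean that weights the cytosines equally was not computed.

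The window chr15:59544001-59545000, 62.4 kb past the dense stretch, also had intermediate levels but no separation of fractions. Its 4 cytosines averaged 49.5% ± 8.36 in PML-RARα CD34-, 43.3% ± 6.94 in PML-RARα CD34+, 47.6% ± 4.14 in WT CD34- and 46.4% ± 8.14 in WT CD34+ libraries (n = 5 each, SD). The PML-RARα difference of 6.13 points had an adjusted p of 0.321 (quasi-binomial test) and was -3.86 points within flowcell B. An intermediate level in this interval was thus not always accompanied by a lower level in CD34- cells.

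The 9 remaining windows with methylated cytosines had group means of 76.1% to 99.8%. Among them, the single cytosine 59489920 had the largest WT difference, -12.4 points. WT CD34- replicates 2, 8, 10, 16 and 18 had 100%, 74.2%, 93.6%, 58.2% and 100% there, against 100%, 88.3%, 99.5%, 100% and 100% in WT CD34+ replicates 1, 7, 9, 15 and 17, so the lower mean came from replicates 8 and 16. In PML-RARα cells its means were 96.4% ± 8.11 in CD34- and 99.3% ± 1.64 in CD34+ libraries (SD, n = 5 each). Cytosine 59492520 differed by -7.29 points in WT cells, with 91.2% ± 6.79 in CD34- and 98.5% ± 3.06 in CD34+ libraries, and by -0.681 points in PML-RARα cells. The most methylated, 59497403, averaged 94.1% ± 13.1 in PML-RARα CD34-, 99.8% ± 0.438 in PML-RARα CD34+, 99.4% ± 1.28 in WT CD34- and 98.0% ± 3.52 in WT CD34+ libraries (n = 5 each, SD).

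**Figure D5:**
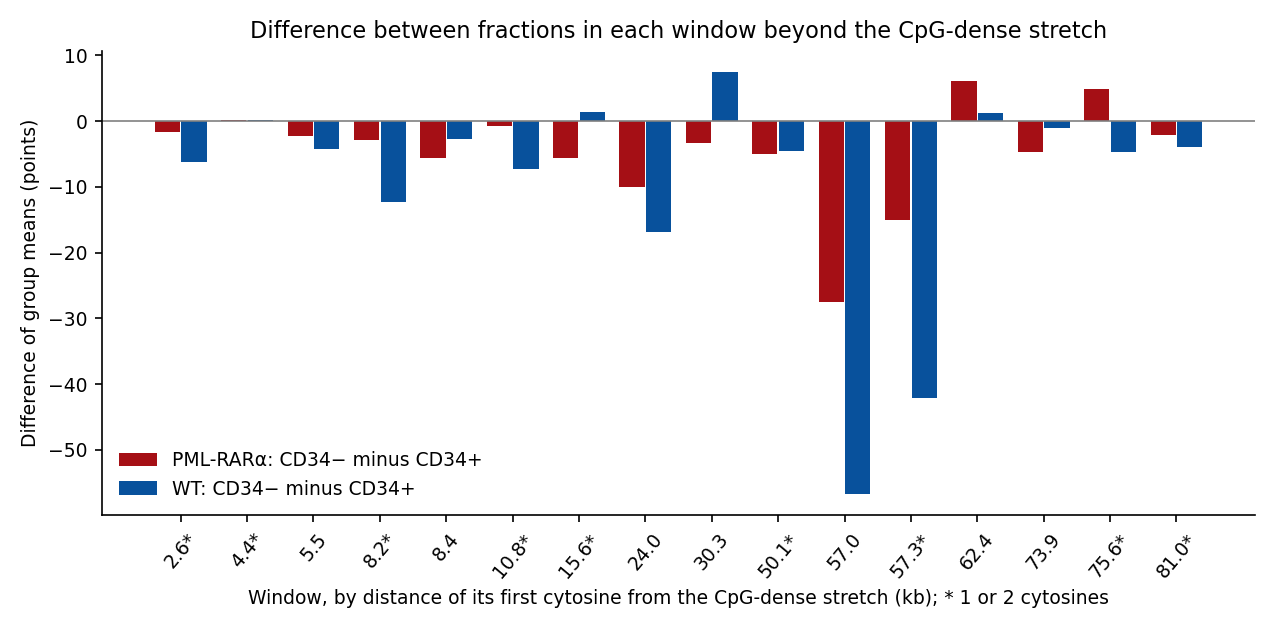
Difference of group means, CD34- minus CD34+ (vertical axis, percentage points), for PML-RARα and WT in each of the 16 windows beyond the CpG-dense stretch, ordered by distance in kb. The far cluster and the cytosine beside it have the largest differences, and the windows at 15.6, 30.3 and 75.6 kb differ in sign between the genotypes.

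Counted over the interval, 0 of the 10 tested windows were called in the PML-RARα comparison of CD34- with CD34+ cells, against 0.0558% of all windows, with adjusted p-values of 0.0629 or more (quasi-binomial test, adjusted p below 0.05 and at least 10 points). Unadjusted p-values below 0.05 were found for 3 of the 10 windows, the near and far clusters and the window at 62.4 kb, against 9.42% of all windows. By limma they were found for 2 of the 10, against 9558 of all 127276 windows. Limma called 0 of the 10, against 25 of all windows. Among single cytosines 0 of 256 were called, against 0.00196% of all cytosines, and 38 had an unadjusted p below 0.05, which 8.53% of all cytosines had. The smallest adjusted p of a cytosine was 0.120. With 71 called windows in the genome, a count of 0 among 10 does not set the interval apart.

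In WT cells 2 of the 10 windows passed the same thresholds, the near and far clusters, against 0.427% of all windows. This contrast selected the interval, so nothing is read from that count. The levels were lower in CD34- cells in 8 of the 10 windows in PML-RARα cells (median difference -2.83 points, against -0.120 over all windows) and in 7 of 10 in WT cells (median -0.589, against -0.374). Of the 60 kept cytosines outside the dense stretch, 43 had a lower mean in PML-RARα CD34- and 48 in WT CD34- cells. The fractions did not overlap at 3 of these 60 in PML-RARα cells, against 0.410% of all kept cytosines of the genome, and at 20 in WT cells, against 0.678%. Among the 751309 kept cytosines with a mean of 5% or more those shares were 0.884% in PML-RARα and 1.44% in WT cells. The WT count of 20 includes all 7 cytosines of the window that chose the interval and all 8 of the near cluster. Nothing is read from that count either.

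PML-RARα cells were set against WT cells within each fraction. These comparisons share the WT libraries that chose the interval, and the shared values are given side by side. A choice by a large WT fall favours low WT CD34- and high WT CD34+ levels at the far cluster. The differences there are therefore a description, and neither their direction nor their p-values are read as a result. At the far cluster the PML-RARα level was 41.6% against 21.4% in WT among CD34- cells (20.2 points higher; adjusted p 0.532, quasi-binomial test) and 69.1% against 78.2% in WT among CD34+ cells (-9.09 points; adjusted p 1). The libraries overlapped in both. Within flowcell A the CD34- difference was 25.5 points (3 PML-RARα against 2 WT libraries), and within flowcell B 19.7 points (2 against 1). Of these PML-RARα libraries, replicate 6 in flowcell A and replicates 4 and 12 in flowcell B were of high scatter. With the libraries of high scatter left out, the CD34- levels lay closer together, 26.6% in PML-RARα (n = 2) against 21.4% in WT (n = 5).

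At the near cluster the PML-RARα level was 7.38% against 10.4% in WT among CD34- cells (-2.98 points; adjusted p 0.607, quasi-binomial test) and 17.4% against 27.2% in WT among CD34+ cells (-9.86 points; adjusted p 1). In CD34- cells 0 of the 10 windows were called, against 0.000786% of all windows, and in CD34+ cells 0 of 10, against 0.00314%. Unadjusted p-values were below 0.05 for 2 of the 10 windows in CD34- cells, against 7.79% of all windows, and for 1 in CD34+ cells, against 4.19% of all windows. By limma they were below 0.05 for 1 of the 10 in each fraction. Among all 127276 windows limma had 5370 in CD34- and 5831 in CD34+ cells. Limma called 0 in both. The smallest adjusted p of the interval was 0.532 in CD34- and 1 in CD34+ cells. These comparisons called 1 window in CD34- and 4 windows in CD34+ cells in the whole genome, so a lack of calls says little about the interval.

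Without the 6 libraries of high scatter the far cluster averaged 26.6% ± 4.70 in PML-RARα CD34- (n = 2), 63.6% ± 7.42 in PML-RARα CD34+ (n = 3), 21.4% ± 7.40 in WT CD34- (n = 5) and 76.1% ± 12.9 in WT CD34+ libraries (n = 4; all SD). The PML-RARα libraries then no longer overlapped, and the adjusted p was 0.161 (quasi-binomial test). The near cluster then averaged 6.76% ± 1.74 in PML-RARα CD34-, 15.6% ± 0.452 in PML-RARα CD34+, 10.4% ± 1.93 in WT CD34- and 25.2% ± 2.43 in WT CD34+ libraries, with the same n. The part of scatter in the PML-RARα overlap was not tested beyond these values.

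Across the 20 libraries, which share group, flowcell and depth, the near cluster followed the far cluster with a Pearson r of 0.757, cytosine 59539062 with 0.690 and the window of 59484407 with 0.624 over 19 libraries. The window at 30.3 kb had -0.295 and the dense stretch at most 0.160. Outside the interval, the 5 windows whose level was most like the far cluster among 114433 windows were chr8:113948001-113949000 (r 0.944), chr6:121036001-121037000 (0.940), chr5:119779001-119780000 (0.935), chr1:173206001-173207000 (0.931) and chr2:119122001-119123000 (0.927). The first of them averaged 54.9% in PML-RARα CD34-, 70.4% in PML-RARα CD34+, 44.6% in WT CD34- and 71.8% in WT CD34+ libraries. The order of the groups was the same there, with a smaller distance between them. Picking a window by its r favours such an order, so nothing is read from it.

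For the genes that act with Trib1, methylation was read at the promoters that could be placed among the mm9 cytosines by the spacing of their CpGs. Trib2, a Tribbles paralogue that also brings C/EBPα to COP1, is shown because it was the one that met the placement rule: all 54 cytosines listed in the span matched. The RefSeq GRCm38.p6 sequence, 5′ to 3′ on the gene's strand with CpGs in capitals, was matched to mm9 chr12:15823542-15823841.
Trib2 promoter: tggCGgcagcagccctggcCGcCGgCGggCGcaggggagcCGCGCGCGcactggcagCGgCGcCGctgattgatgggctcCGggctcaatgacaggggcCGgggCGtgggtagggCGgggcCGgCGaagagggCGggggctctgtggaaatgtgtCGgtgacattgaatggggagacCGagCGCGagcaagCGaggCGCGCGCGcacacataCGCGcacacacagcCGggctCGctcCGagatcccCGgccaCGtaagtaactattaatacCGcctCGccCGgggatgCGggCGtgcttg

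These 40 CpGs gave 37 kept cytosines, and their pooled level was 0.419% ± 0.506 in PML-RARα CD34-, 0.206% ± 0.118 in PML-RARα CD34+, 0.286% ± 0.138 in WT CD34- and 0.275% ± 0.171 in WT CD34+ libraries (n = 5 each, SD). A second placement rule, chosen after the data were seen, allowed a closer next best placement. It allowed no other placement with at least 10 matches and at least 95% of the listed cytosines matched, which Trib2 did not meet. By this rule 3 promoters were placed: Trib3, a further paralogue, Cop1, the ligase itself, and Cebpb, a transcription factor related to C/EBPα. They had group means of 0.0388% to 0.490%. The highest value of a library at these 4 promoters was 1.98%. These levels lie near the 0.0637% to 0.375% of the dense stretch in the Trib1 interval. Cebpa was not placed, and no level is given for Trib1, Cebpd, Cebpe and Nsmce2.

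The rule's limit on coverage decided which cytosines could be described. Of the 256 kept, 182 had 10 reads in all 20 libraries and 74 in only 4 libraries of their least covered group. Another 27 cytosines just missed the limit with 3 libraries. Outside the dense stretch the 14 cytosines just inside the limit had a pooled level of 71.8%, and the 9 just outside it 21.6%.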

How the data were processed

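ERRBS libraries of sorted FVB/n promyelocytes were grouped by the genotype and fraction in the labels, 5 per group. The submitters' processing notes list CASAVA 1.8.2, Bismark and the mm9 build. Per the file headers, the deposited values are, for each CpG cytosine of each strand, the count of reads covering it and the percent of those reads with C and with T. Methylated and unmethylated reads were recovered as coverage times each percent. At 1.38% to 3.23% of cytosines a few reads had another base (0.0176% to 0.0630% of reads), which were left out. Reads carry no molecular identifiers.

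The interval was chr15:59470001-59570000 and the window that chose it chr15:59538001-59539000. The interval, its members and the gene list were chosen with earlier results of these data known. Reads were summed over 1000 bp windows with at least 3 kept cytosines on chromosomes 1 to 19. Windows and single cytosines were modelled by quasi-binomial logistic regression on the 4 groups. Overdispersion, on 16 residual degrees of freedom, was at least 1 and was moderated over windows by limma's squeezeVar method (limma 3.58.1, R 4.3.3), with 3.45 prior degrees of freedom. Groups were compared by a two-sided F test of the deviance with Benjamini-Hochberg adjustment over all windows or cytosines. Calls needed an adjusted p below 0.05 and 10 points between group means. The far cluster was also tested by exact permutation of the PML-RARα libraries (252 splits). The code was tested on simulated data. No pair of libraries in a group was a duplicate (chi-square per window 4.35 to 25.1).

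The text names the choosing window, the 3 windows of the CpG-dense stretch, the 5 largest falls and 3 largest rises of the WT difference, the highest and lowest windows and any window called in PML-RARα. Cytosine 59484407 and the cytosines without overlap were singled out after their values were seen. Promoters were placed by CpG spacing: at least 10 matched cytosines, 95% of those listed in the span, and no other placement with more than 1 match for every 2. The alternatives used other coverage and cytosine minimums, a shifted window grid, fewer groups, flowcell as a factor, thinned reads, limma on log2((methylated + 0.5)/(unmethylated + 0.5)), left out libraries, and a block of consecutive title numbers.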

Additional observations from a re-analysis of the deposited data

Results flagged for a closer look

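Of 84 sets of 5 libraries of a group, at 13 windows and at the 8 cytosines in and beside the far cluster, 15 had a library far from the other 4 for their range. Chance singles out about 1 in 20, or 4.2. All 15 were at windows, most of them where the other libraries lay at or near 0% or 100% and the range was small. In the dense stretch, WT CD34- replicate 16 had 0.401% in the window at 59480001 (others 0.104% to 0.185%) and WT CD34+ replicate 1 had 1.14% in the window at 59481001 (others 0.0948% to 0.272%). In the window at 59484001, PML-RARα CD34- replicate 20 had 1.98% and WT CD34- replicate 8 had 0.637%, with the other libraries of each group at 0%. In the window at 59487001, WT CD34- replicate 16 had 77.7% (others 87.9% to 91.9%).

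At cytosine 59489920, PML-RARα CD34- replicate 12 had 81.9% (others 100%), PML-RARα CD34+ replicate 13 had 96.3% (others 100%) and WT CD34+ replicate 7 had 88.3% (others 99.5% to 100%). At cytosine 59492520, PML-RARα CD34+ replicate 19 had 94.9% (others 100%) and WT CD34+ replicate 7 had 93.0% (others 99.4% to 100%). At cytosine 59497403, PML-RARα CD34- replicate 4 had 70.7%, PML-RARα CD34+ replicate 13 had 99.0% and WT CD34- replicate 2 had 97.1%, with the others of each group at 100%, and WT CD34+ replicate 9 had 91.9% (others 98.0% to 100%). In the gradient window at 59512001, WT CD34+ replicate 1 had 25.4% (others 41.2% to 46.3%). Library effects at these positions were not tested.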

How the results depend on the processing

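The PML-RARα difference at the far cluster could move under 14 of the 30 alternatives, where it ranged from -37.0 to -22.5 points. The other 16 leave the levels of the PML-RARα libraries as they are and can change only the p. Without a replicate block the adjusted p ran from 0.0945 to 0.873 (quasi-binomial test; limma in 1) and missed the threshold. In the exact permutation test, leaving out a library gave -32.9 to -22.5 points and p from 0.00794 to 0.0635, and as a mean of cytosine levels the difference was -25.9 points (p = 0.0317). Of the 10 windows of the interval, 0 to 1 were called in PML-RARα when libraries were left out (the near cluster, without CD34- replicate 12), and 2 to 2 in WT. Thinned reads called 1 in WT and limma 1, the far cluster.

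The genome-wide counts that stand beside the interval moved more. The 71 PML-RARα windows became 45 with 20 reads, 110 on the shifted grid, 108 with 1 cytosine, 8 with 2 groups in the fit, 13 with flowcell, 4 with thinned reads, 25 by limma and 3 without the libraries of high scatter. Leaving out 1 library gave 15 to 93 (15 without CD34+ replicate 19, 23 without CD34+ replicate 3). The 543 WT windows became 357 with 20 reads, 258 thinned and 136 by limma, and 306 to 603 without 1 library. The 4 windows of PML-RARα against WT in CD34+ cells became 1 with 20 reads, on the shifted grid, with 1 cytosine or thinned, 2 without high scatter, 9 with flowcell, 0 by limma, with 2 groups or with all 20 libraries required, and 0 to 4 without 1 library. The 1 window in CD34- cells became 0 under limma, flowcell, 2 groups, 1 cytosine or all 20 libraries, and 0 to 2 without 1 library. The causes were not tested. At 10 reads a level moves in steps of 10 points, so single cytosines carry less than clusters.

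The groups share no replicate numbers, but title numbers run in consecutive pairs of a CD34- and a CD34+ library of a genotype, and a fit with these 10 pairs as a replicate block was added after the data were seen. Over 22720 windows, the correlation of the deviations of paired libraries from their group means ran from -0.0543 to 0.221 and passed 0.1 in 3 of 10 pairs. Of the CD34- libraries, 4 of 10 correlated best with their own partner. Such correlations cannot decide whether the numbers pair the samples, because paired samples need not deviate together. Both libraries of a pair also share a second title tag, and the labels do not explain it. The main fit used no pairs. With the block the far cluster, at the same -27.5 points, was called in PML-RARα (adjusted p 0.00556, quasi-binomial test), as 1 of the 10 windows, and the near cluster had an adjusted p of 0.207. The genome-wide counts were 91 in PML-RARα and 455 in WT. At the far cluster the CD34- library was lower in 5 of 5 PML-RARα pairs, with differences of -39.1 to -10.4 points (exact sign-flip p = 0.0625, the smallest that 5 pairs can give), and at the near cluster in 4 of 5 (p = 0.125). The genotypes cannot be compared with this block.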
